A study of Mus musculus with 6 samples.

Results

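The clustered replication-dependent histone genes of the mouse were compared between control and 5-azacytidine-induced cardiosphere-derived cells. The members were chosen by name: every protein-coding gene of the deposited table whose symbol begins with Hist1h, Hist2h, Hist3h or Hist4h, with no use of its measured values. This gave 67 of 54532 genes in the table, namely 6 of the linker histone H1, 18 of H2A, 18 of H2B, 12 of H3 and 13 of H4. On GRCm38 (mm10), 54 of them lay in the HIST1 cluster at chr13:21715763-23934851, 10 in HIST2 at chr3:96219865-96270132, 2 in HIST3 at chr11:58948920-58956830 and 1, Hist4h4, at chr6:136801553-136804415. A further 3 rows with such names, Hist3h2bb-ps, Hist1h2al and Hist1h2aj, were pseudogenes and were left out.

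The cells were cardiosphere-derived cells of C57BL/6 heart ventricle, grown out of adult epicardium. They were immortalized with hTERT, the catalytic subunit of human telomerase, which all libraries share. Both groups were iCDCs at passage 30, in 3 control and 3 induced libraries. Induced cells had received 10 µM 5-aza, a cytidine analog that traps DNA methyltransferases, for 3 days and then, per the labels, 4 weeks of culture in IMDM with 2% FBS, whereas the methods of the study give another medium and a shorter culture. The routine medium in the methods was IMDM-based explant medium with far more serum, but no source used here ties it, or a time in culture, to the control samples, so the drug, low serum and weeks in culture cannot be told apart. The cells are an immortalized line, and the labels speak of separate samples. The methods call the sequenced samples biological replicates, with a number per group that differs from the labels, and whether they were separate cultures is not stated, so the p-values measure the spread between these samples, which may be technical.

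Replication-dependent histones package newly copied DNA, and their genes are transcribed mainly in S phase. Their mRNAs are unusual in that most end in a short stem-loop in place of a poly(A) tail, and the stem-loop binding protein SLBP, the U7 small nuclear RNP and a set of cleavage factors make that end and govern the life of the mRNA. Some clustered genes can also yield polyadenylated mRNAs from a signal further downstream, and this is known for resting and differentiated cells. Replacement histones, by contrast, are mostly encoded outside the clusters by genes with ordinary polyadenylated mRNAs. Many of them, though not all, are made outside S phase too.

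The stem-loops of the members whose reads the results turn on are shown first, because the form of the 3′ end bears on which histone mRNAs a library can hold. The sequences are the sense strand of GENCODE M21 transcripts, written 5′ to 3′ as DNA letters with the stem-loop of 16 bases in capitals and up to 5 bases on either side, and all lie in annotated 3′ UTRs. The list holds the most read H1, the H1 called lower, the called H2A, H2B, H3 and H4 members that have such a sequence, the most read H4 and an H3 gene whose reads were fewer after induction.
Hist1h1c, chr13:23739507-23739532, plus strand: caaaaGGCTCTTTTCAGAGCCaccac
Hist1h1d, chr13:23555782-23555807, plus strand: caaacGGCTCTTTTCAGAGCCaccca
Hist3h2a, chr11:58955167-58955192, plus strand: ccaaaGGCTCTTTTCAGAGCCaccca
Hist3h2ba, chr11:58949344-58949369, plus strand: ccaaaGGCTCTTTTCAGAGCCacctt
Hist2h3c2, chr3:96238480-96238505, minus strand: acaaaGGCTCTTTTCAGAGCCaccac
Hist1h4h, chr13:23531453-23531478, plus strand: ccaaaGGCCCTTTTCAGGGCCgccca
Hist1h4i, chr13:22040961-22040986, minus strand: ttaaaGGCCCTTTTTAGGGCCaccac
Hist1h3c, chr13:23745042-23745067, minus strand: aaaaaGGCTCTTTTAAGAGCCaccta

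Searched as a perfect inverted repeat of 6 bases around a loop of 4, starting with GG, 3 pyrimidines and T, the histone stem-loop was found in 45 of the 52 members with an annotated 3′ UTR of at least 20 bases, against 0.177% of 20900 other coding genes. It occurred in 8 versions, and the commonest, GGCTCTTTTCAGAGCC, stood in 25 members. The first 5 sequences above share that version, so the H1 called lower and the H1 called higher have the same 16 bases. The annotated models differ in what follows. In 9 members the model ends within 30 bases of the stem-loop, as a cleaved histone mRNA would, whereas in 23 it runs more than 100 bases past it, and 14 hold the polyadenylation signal AATAAA after the stem-loop. The model of Hist1h1c continues for 840 bases and holds 1 such signal. That of Hist1h4h ends after 46 bases and that of Hist1h3c after 74 bases, with no AATAAA in either. No perfect stem-loop was found in the annotated 3′ UTRs of Hist1h2bc and Hist2h2be, which hold 1 and 2 AATAAA, and this says only that the repeat is not in those models.

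In all, 58 of the 67 members had at least 1 read, 57 of them in control and 49 in induced cells, but most were close to silence in these libraries. Reads in all 6 libraries were found for 26 members. The whole family took 0.0118 to 0.0128% of the reads of a control library and 0.0410 to 0.0421% of those of an induced library. Of the 9 members with no read, 7 share more than 50% of their 75-base stretches with other genes, for which reads cannot be assigned to 1 copy, among them Hist2h2aa1, Hist2h2aa2, Hist2h3b, Hist2h3c1 and Hist2h2bb at 100%. The other 2, Hist1h2aa and Hist1h2ba, are known as testis-type histones, as is Hist1h1t, which had 1 read, in a control library. Libraries held 19041133 to 19823369 counted reads, and 3 reads in a library correspond to 0.151 to 0.158 CPM. A member at 0 in a library is therefore not detected at this depth, not shown to be absent.

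**Figure D1:**
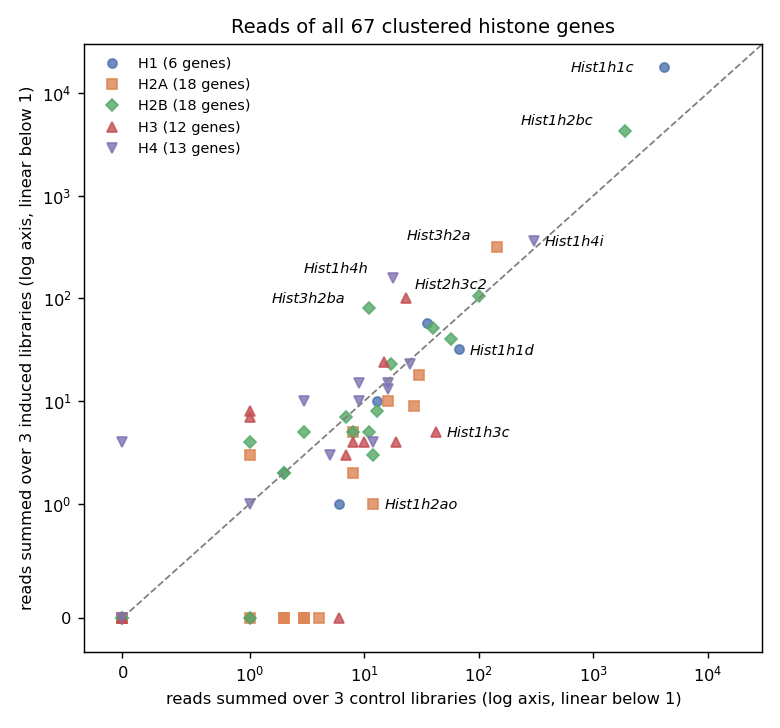
Reads of each clustered histone gene summed over the 3 control libraries (x axis) and the 3 induced libraries (y axis), on log axes that are linear below 1; the dashed line marks equal reads and the symbols mark the histone class. Hist1h1c and Hist1h2bc stand far above the rest, several H2A and H3 genes lie below the line, and Hist1h4h, Hist3h2ba and Hist2h3c2 lie well above it.

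Of the 67 members, 12 passed the filter on low counts, and the quasi-likelihood F test of edgeR, adjusted by Benjamini and Hochberg's method and read at 0.05, called 6 higher and 1 lower in induced cells. Of 14246 genes tested, 64.8% were called, 32.6% higher and 32.2% lower, so the share of members called, 58.3%, was near the background. Of the 12 tested members, 6 were called and at least 2-fold higher, against 9.29% of all tested genes. At least 4-fold higher were 4 of the 12, against 4.11%. Of those 4, Hist1h4h, Hist3h2ba and Hist2h3c2 passed the filter only through the induced libraries, which favours large rises. The groups of 3 libraries did not overlap for 7 of the 12 members, against 68.6% of all tested genes. These counts depend on the filter: 7 members passed it in both groups, of which 3 were higher and 4 not called, whereas 4 passed only through the induced libraries, of which 3 were higher, and Hist1h1d passed only through the control libraries. The median log2 fold change was 0.97 over the 12 members, 0.41 over the 7 that passed in both groups and -0.01 over all tested genes.

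Hist1h1c, which encodes the linker histone H1.2, was the most read member and rose most in absolute level. Linker histones bind the DNA that enters and leaves the nucleosome. Hist1h1c (ENSMUSG00000036181, chr13:23738808-23740367, plus strand) had 72.6, 66.0 and 71.3 CPM in the control libraries and 321.6, 316 and 313 CPM in the induced libraries. Every induced library was more than 4-fold above every control library. Its log2 fold change was 2.18 (SE 0.05; edgeR adjusted p = 1.42e-16), from 70.0 ± 3.47 to 317 ± 4.35 CPM (SD, n = 3 each). It alone took 56.7 to 57.7% of the reads of all members in control libraries and 74.9 to 76.4% in induced libraries.

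The other H1 genes did not share that rise. Hist1h1d, which encodes H1.3, had 1.37, 1.27 and 0.751 CPM in control and 0.425, 0.736 and 0.524 CPM in induced libraries. The lowest control and the highest induced library nearly met. Its log2 fold change was -1.0 (SE 0.37; edgeR adjusted p = 0.0249), on 67 and 32 reads in all. This call was lost with DESeq2 (adjusted p = 0.0628) and when control 1, control 2, induced 1 or induced 3 was left out, with adjusted p from 0.0734 to 0.112. Hist1h1e, which encodes H1.4, had 0.862, 0.561 and 0.351 CPM in control and 0.850, 0.947 and 1.20 CPM in induced libraries, and these ranges overlapped. Its log2 fold change of 0.76 (SE 0.38) was not called (edgeR adjusted p = 0.0883), although it passed without control 1 (1.13; adjusted p = 0.0393). Of the exon bases of Hist1h1e, 25.7% overlap other genes on the same strand, among them the tested H2B gene Hist1h2be. Hist1h1b, the gene of H1.5 and a typical H1 of dividing cells, had 13 reads in control and 10 in induced libraries. Hist1h1a had 2 reads in each control library and 1 read in the induced libraries together. Summed without Hist1h1c, the H1 genes stood at 2.06 ± 0.636 CPM before and 1.76 ± 0.188 CPM after induction, and the groups overlapped.

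Among H2B genes, which encode the partner of H2A in the nucleosome, Hist1h2bc carried most reads. Hist1h2bc (ENSMUSG00000018102, chr13:23684199-23692908, plus strand) had 33.0, 29.7 and 32.9 CPM in control and 80.5, 69.6 and 76.7 CPM in induced libraries. The groups were far apart, with a log2 fold change of 1.25 (SE 0.06; edgeR adjusted p = 6.97e-12). It took 25.5 to 26.4% of member reads in control and 16.8 to 18.7% in induced libraries, so with Hist1h1c it made up 82.2 to 83.9% and then 93.3 to 93.6% of all reads of the family. Hist3h2ba, an H2B gene of the small HIST3 cluster (ENSMUSG00000056895, chr11:58948920-58949533), had 0.152, 0.357 and 0.0501 CPM in control and 1.70, 1.37 and 1.15 CPM in induced libraries. The control libraries were near the level of 3 reads, with 11 reads in all against 80 after induction, and its log2 fold change was 2.88 (SE 0.47; edgeR adjusted p = 2.94e-05). The other H2B genes tested were not called. Hist1h2be had a log2 fold change of -0.45 (SE 0.34), Hist1h2bg of 0.41 (SE 0.35) and Hist2h2be of 0.12 (SE 0.25), with overlapping libraries in each case. Of the exon bases of Hist1h2be, 11.2% overlap other genes, among them Hist1h1e, so these members are not fully separate measurements. Hist2h2be is the only tested H2B gene that shares no 75-base stretch with another gene. Without Hist1h2bc, the H2B genes summed to 4.82 ± 0.196 CPM in control libraries against 5.98 ± 0.401 CPM after induction, without overlap. In reads this sum was 96, 98 and 92 in control and 120, 106 and 114 in induced libraries. It includes Hist3h2ba with its 11 and 80 reads, so no rise of the remaining H2B genes is read from it.

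A single H2A gene passed the filter. Hist3h2a, the HIST3 neighbour of Hist3h2ba (ENSMUSG00000078851, chr11:58954685-58956830, plus strand), had 2.33, 2.85 and 2.15 CPM in control and 5.95, 6.26 and 4.403 CPM in induced libraries. It rose with a log2 fold change of 1.18 (SE 0.19; edgeR adjusted p = 2.83e-05). Of its exon bases 33.0% overlap other genes, chiefly Trim17, which itself had 8 reads in control and 15 in induced libraries against 145 and 315 for Hist3h2a. Both genes of HIST3 thus rose, a cluster of 2.

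Hist2h3c2, which encodes H3.2 in the HIST2 cluster (ENSMUSG00000081058, chr3:96238108-96239127, minus strand), was the H3 gene tested. It had 0.405, 0.204 and 0.551 CPM in control and 1.33, 1.95 and 1.99 CPM in induced libraries. The lowest induced library was above the highest control library, and the log2 fold change was 2.16 (SE 0.37; edgeR adjusted p = 5.41e-05). Because 62.6% of its 75-base stretches occur in other genes, including copies listed at 0 reads, its reads cannot be assigned to this locus with certainty.

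H4 is encoded by many genes for the same protein, of which Hist1h4i and Hist1h4h were tested. Hist1h4h (ENSMUSG00000060981, chr13:23531050-23531519, plus strand) had 0.355, 0.204 and 0.351 CPM in control and 3.56, 2.37 and 2.36 CPM in induced libraries. It showed the largest fold change of the tested members, 3.16 on the log2 scale (SE 0.35; edgeR adjusted p = 2.53e-07), on 18 and 157 reads. Hist1h4i, the H4 gene with the most reads, had 4.26, 4.94 and 6.01 CPM in control and 5.47, 6.10 and 7.55 CPM in induced libraries. These ranges overlapped and its log2 fold change of 0.33 (SE 0.16) was not called (edgeR adjusted p = 0.0885), while it passed without control 3 (0.48; adjusted p = 0.0288) and without induced 1 (0.43; adjusted p = 0.0457).

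**Figure D2:**
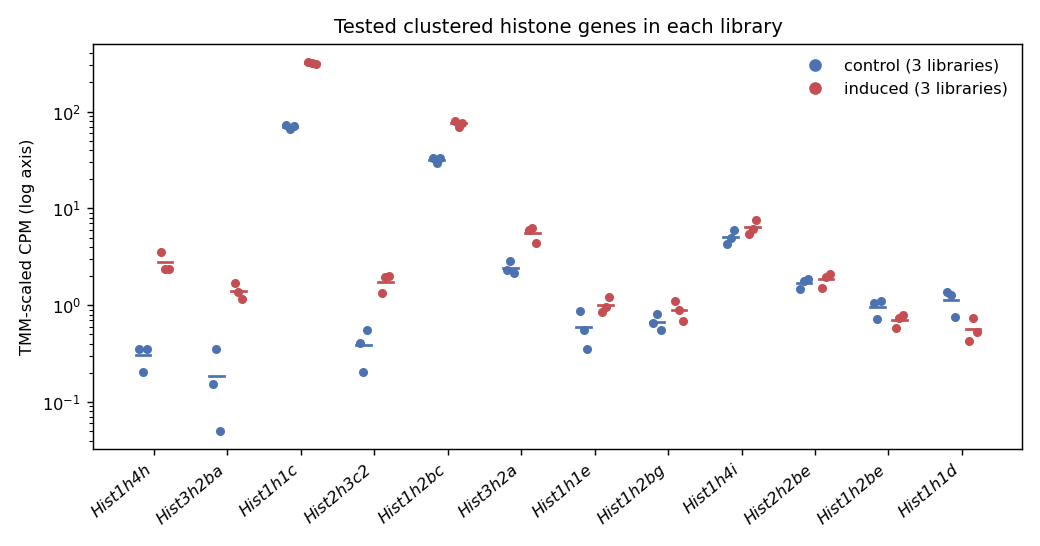
TMM-scaled CPM (log axis) of the 12 clustered histone genes that passed the filter on low counts, in each of 3 control and 3 induced libraries; points are libraries and bars are group means, ordered by fold change. The 6 genes on the left are higher in every induced than in every control library, and Hist1h1d on the right is lower.

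The 55 members below the filter are given by their reads alone. The filter bears on what is left here, because 4 members of low count, such as Hist1h4h and Hist3h2ba, passed it only through their induced libraries and 1 only through its control libraries, so no direction of the family is read from these counts. More reads in control were found for 31, more in induced cells for 11, equal numbers for 4 and none for 9. Their sum was 144, 139 and 136 reads in the control libraries and 94, 88 and 98 in the induced libraries. The ratio of CPM was 0.697, and 0.760 without Hist1h3c. Over all members but Hist1h1c and Hist1h2bc, tested or not, the sum was instead larger in induced cells, with 20.5 and 27.8 CPM. By class, the untested H2A genes held 46, 37 and 34 reads in control and 14, 17 and 17 in induced libraries, and the untested H3 genes had 29, 37 and 43 reads in control and 21, 22 and 16 in induced libraries. The H3 gap came from Hist1h3c, without which the sums of 11, 29 and 27 against 18, 20 and 16 reads overlapped. Over all members of a class, tested or not, H2A had 262 reads before and 363 after induction, and H3 had 132 and 159. The untested H2B sums of 30, 26 and 21 against 28, 12 and 24 reads overlapped, as did the H4 sums of 32, 31 and 33 against 26, 34 and 38 reads. Counting only the 25 untested members with under 50% of shared 75-base stretches, the sums were 85, 73 and 85 reads in control and 42, 49 and 62 in induced libraries.

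Hist1h3c, an H3 gene at chr13:23744973, was the untested member with the largest difference in reads, though not in fold. It had 18, 8 and 16 reads in the control libraries and 3, 2 and 0 in the induced libraries, an induced-to-control ratio of 0.121 (exact 95% interval 0.0373 to 0.305, counting error only). With no filter on low counts it had a log2 fold change of -2.91 (edgeR adjusted p = 8.04e-05), where 58 members were tested, 6 were higher and 2, Hist1h3c and Hist1h1d, were lower. Without that filter 19.9% of all genes were higher and 18.1% were lower. Hist1h2ae had 27 reads before and 9 after induction, Hist1h3g had 19 and 4, and Hist1h2ao had 12 and 1. Hist1h3a had 6 and 0, and its control libraries held 1, 3 and 2 reads. None of these 4 passed without the filter (edgeR adjusted p = 0.0803, 0.0620, 0.0542 and 0.0926). For each, every control library held more reads than every induced library. Groups without overlap were common, however, at 68.6% of all tested genes on the CPM scale. That share was not taken over genes of such low counts. In the opposite direction, Hist1h3i had 1 read in control and 8 in induced libraries, Hist1h3b had 1 and 7, Hist2h4 had 3 and 10 and Hist4h4 had 0 and 4, none past the test without the filter.

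As sums of CPM, H1 went from 72.04 ± 3.49 to 318.8 ± 4.17, H2B from 36.7 ± 1.74 to 81.6 ± 5.89, H2A from 4.42 ± 0.488 to 6.38 ± 0.969 and H4 from 6.99 ± 0.920 to 10.9 ± 0.904 (SD, n = 3 each), without overlap between groups. The H3 sums, 2.22 ± 0.431 and 2.79 ± 0.331 CPM, overlapped. No p is given for these sums, which a few genes decide. The sum over all members went from 122 ± 5.08 to 420 ± 8.15, while without Hist1h1c and Hist1h2bc it was 20.5 ± 0.287 and 27.8 ± 0.249 CPM. On the FPKM scale, which divides by gene length, the H2A sums of 4.16 ± 0.489 and 3.68 ± 0.554 overlapped. The rise of the H2A sum was thus seen in CPM and not in FPKM.

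**Figure D3:**
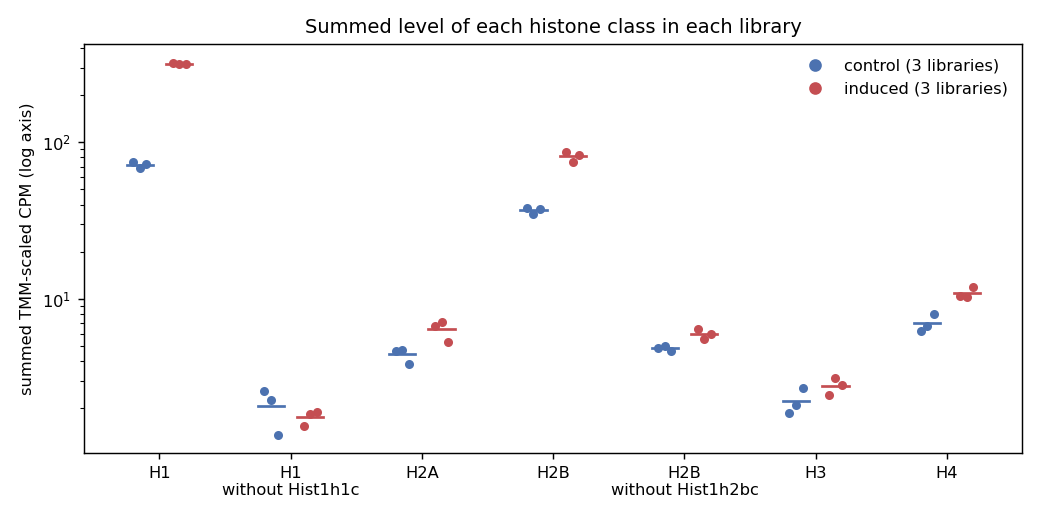
Summed TMM-scaled CPM (log axis) of the members of each histone class in each of 3 control and 3 induced libraries, with H1 also shown without Hist1h1c and H2B without Hist1h2bc; bars are group means. The H1 sum goes from 72.04 to 318.8 CPM with Hist1h1c and from 2.06 to 1.76 CPM without it.

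The levels were also set beside the form of the annotated 3′ end. The 19 members whose model holds AATAAA gave 110 ± 5.03 CPM together in control and 404 ± 7.89 CPM after induction, and the 48 without it to 12.2 ± 0.813 and 16.04 ± 0.669 CPM. Of the first set, Hist1h1c and Hist1h2bc made up most, and the other 17 summed to 8.35 ± 0.770 and 11.7 ± 0.783 CPM. Of the 12 tested members 7 have the signal, against 12 of the 55 untested. Hist1h4h, Hist2h3c2, Hist1h4i, Hist1h1e and Hist1h2bg passed the filter with no AATAAA in their model. The study's methods name the NEBNext Ultra kit or an oligo(dT) method for its libraries and no removal of ribosomal RNA, and the labels of these libraries name the NEBNext kit without saying how the RNA was enriched. Hence more mRNA and a larger polyadenylated share of it cannot be told apart. RNAs without a tail were near 0: Rn7sk, the RNA of the 7SK particle, had 10 reads in control and 25 in induced libraries, Terc had 1 and 1, and Rmrp and Rpph1 had none.

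Upstream sequences are shown for Hist1h1c, Hist1h4h and Hist3h2a, which rose, and for Hist1h3c, whose reads were fewer after induction, because clustered histone genes of a class share promoter elements. Each is the run of 250 bases before the RefSeq start, 5′ to 3′ on the strand of the gene on GRCm38.p6, with 3 motifs and their reverse complements in capitals, namely the CCAAT box, the TATA box searched as TATAAA and the octamer ATTTGCAT.
Hist1h1c, chr13:23738557-23738806, plus strand: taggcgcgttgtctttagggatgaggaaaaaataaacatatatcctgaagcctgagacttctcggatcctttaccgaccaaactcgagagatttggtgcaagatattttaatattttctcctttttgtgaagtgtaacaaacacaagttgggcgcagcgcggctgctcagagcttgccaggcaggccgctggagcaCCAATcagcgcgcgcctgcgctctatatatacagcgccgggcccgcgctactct
Hist1h4h, chr13:23530794-23531043, plus strand: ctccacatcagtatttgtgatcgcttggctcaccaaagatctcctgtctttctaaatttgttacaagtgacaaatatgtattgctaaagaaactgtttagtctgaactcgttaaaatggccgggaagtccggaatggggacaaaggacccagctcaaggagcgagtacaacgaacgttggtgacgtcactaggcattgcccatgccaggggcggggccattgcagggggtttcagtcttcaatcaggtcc
Hist3h2a, chr11:58954435-58954684, plus strand: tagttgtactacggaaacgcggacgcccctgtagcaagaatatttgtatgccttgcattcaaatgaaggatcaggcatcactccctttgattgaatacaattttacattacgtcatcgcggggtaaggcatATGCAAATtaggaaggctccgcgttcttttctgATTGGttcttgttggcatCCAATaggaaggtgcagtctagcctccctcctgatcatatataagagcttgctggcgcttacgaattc
Hist1h3c, chr13:23745522-23745771, minus strand: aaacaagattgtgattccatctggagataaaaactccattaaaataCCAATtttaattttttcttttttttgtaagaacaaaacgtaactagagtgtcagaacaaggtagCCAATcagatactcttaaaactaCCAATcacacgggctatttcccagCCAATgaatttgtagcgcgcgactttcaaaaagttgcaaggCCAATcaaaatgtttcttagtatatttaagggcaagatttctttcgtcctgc

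RefSeq promoters were matched for 62 of the 67 members. The octamer ATTTGCAT, the site bound by Oct-1 (Pou2f1), stood in 13 of them, 20.97%, against 1.61% of all 27025 promoters of the same length. All 13 were H2A (7 of 18) or H2B genes (6 of 16), and H2A and H2B genes lie in divergent pairs whose windows can share bases. CCAAT stood in 82.3% of member promoters against 34.5% of all, and TATAAA in 46.8% against 12.97%. CCAAT was found in 6 of 6 H1 and 18 of 18 H2A promoters but in 3 of 12 H4 promoters, and Hist1h4h has neither it nor TATAAA in the run shown. Of the runs shown, Hist1h1c has 17 CG dinucleotides, Hist3h2a 11, Hist1h4h 9 and Hist1h3c 6. The median was 9.5 over members and 6 over all promoters, so of the genes that rose only Hist1h1c stands well above the members. CG dinucleotides are the sites of DNA methylation, which was not measured here. These matches describe the letters and are not binding sites.

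The replacement histones moved mainly in the opposite direction to the leading members. Of 11 listed and tested, 10 were lower, 1 was higher and the median log2 fold change was -0.67, beside -0.01 over all tested genes. Of all tested genes, 32.2% were lower and 32.6% were higher. The higher gene was H3f3b, which encodes H3.3, with a log2 fold change of 0.44 (SE 0.04; edgeR adjusted p = 3.94e-08). The other H3.3 gene, H3f3a, had -0.13 (edgeR adjusted p = 0.0285), and this call was lost without the filter, without control 1, control 2 or induced 1, and with the replicate number as a block. The centromeric H3 gene Cenpa fell most, with a log2 fold change of -1.95 (SE 0.07), from 58.5 ± 1.85 to 15.1 ± 1.27 CPM. It was followed by the linker histone gene H1fx (-1.77) and by H2afx (-0.97), the gene of the H2A form that is phosphorylated at DNA breaks. H2afy2 (-0.70), H2afj (-0.68), H2afv (-0.67), H2afz (-0.53) and H2afy (-0.31) were also lower.

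Per length, the linker histone gene with the highest FPKM in these libraries changed between groups. How the RNA was enriched is not stated, so this ranks the mRNA counted here, which need not match that in the cells. H1f0, the replacement H1 known from resting and differentiated cells, stood at 159 ± 2.08 FPKM in control and 129 ± 2.03 FPKM in induced cells (log2 fold change -0.31; edgeR adjusted p = 4.54e-06). Hist1h1c stood at 44.4 ± 2.28 FPKM in control, below H1f0, and at 203 ± 2.87 FPKM in induced cells, above it. H1fx stood at 13.3 and 3.91 FPKM. For H2B, Hist1h2bc held 27.3 ± 1.65 and 65.3 ± 4.84 FPKM, and no other H2B member exceeded 2.29 FPKM in either group mean. For H3, H3f3b and H3f3a held 111 and 51.0 FPKM in control, against a sum of 3.16 ± 0.633 FPKM over all clustered H3 genes. The clustered H3 mRNA in these libraries was therefore a small share of the H3 mRNA counted.

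The genes that transcribe clustered histone genes and process their mRNA were mostly lower, by small amounts. Of 24 listed, 22 were found by symbol and tested, with 17 lower, 1 higher, 4 not called and a median log2 fold change of -0.26. Beside these counts, 32.2% of all tested genes were lower and 32.6% were higher. Those with the smallest p were Ccne1 (-1.20, SE 0.11), the cyclin E gene whose kinase acts on the histone gene coactivator NPAT, Cstf2 (-0.60, SE 0.07), a cleavage stimulation factor, and Slbp (-0.95, SE 0.10), with edgeR adjusted p from 3.34e-08 to 2.71e-07. Slbp went from 30.7 ± 0.445 to 15.9 ± 3.01 CPM. The only higher gene, Pou2f1 (0.24; edgeR adjusted p = 0.0344), lost its call under most alternatives. Lsm10 of the U7 particle had 0.02 and was not called, while its partner Lsm11 had -0.42 (edgeR adjusted p = 0.00427).

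Histone chaperones, which carry histones to DNA, and the related acetylase genes showed 16 lower, 1 higher and 7 not called of 24, with a median of -0.39. The share of all tested genes was 32.2% lower and 32.6% higher. Chaf1a, a subunit of the assembly factor CAF-1 that works at the fork, fell by 1.63 on the log2 scale (SE 0.08), Nap1l1, an H2A-H2B chaperone, by 0.91 (SE 0.05) and Hjurp, the chaperone of CENP-A, by 0.96 (SE 0.05), with edgeR adjusted p of at most 8.33e-12. Among the chaperones of replication-independent H3.3, Daxx (0.09) and Atrx (-0.07) were not called. Of the HIRA complex, Hira (-0.45; edgeR adjusted p = 0.00122) and Cabin1 (-0.49; edgeR adjusted p = 1.03e-07) were lower, while Ubn1 (0.01) was not called. Of 24 S phase genes 23 were lower, against 32.2% of all tested genes. None was higher and Fen1 was not called, with a median of -1.23. Mcm5 had -1.79, Mcm6 -1.39 and Lig1 -1.23, with edgeR adjusted p of at most 1.01e-12. The lower S phase genes and the higher Hist1h1c were measured in the same 6 libraries, and a relation between them was not tested. In these bulk libraries, fewer cells in S phase and less RNA per cell cannot be told apart.

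**Figure D4:**
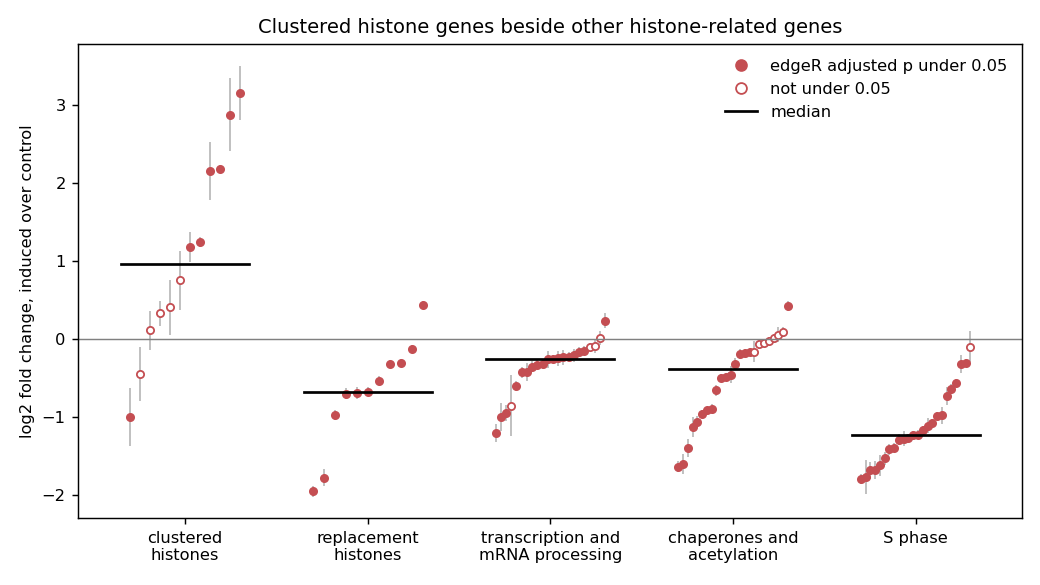
Log2 fold change (induced over control) of the 12 tested clustered histone genes, 11 replacement histones, 22 transcription and mRNA processing genes, 24 chaperone and acetylation genes and 24 S phase genes; points are genes with their SE, filled where the edgeR adjusted p was under 0.05, and bars are medians. The medians are 0.97, -0.67, -0.26, -0.39 and -1.23 in that order, the first being 0.41 over the 7 members that passed the filter in both groups.

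The labelled cell type was checked against its markers. All 7 markers of cardiosphere-derived and epicardial cells were detected (Eng, Thy1, Ly6a, Tbx18, Upk3b, Wt1 and Tcf21), with 5 higher and 2 lower in induced cells. The study, however, reports epicardium-derived cells as negative for Wt1 and Tcf21. Its comparison, by RNA and staining, set primary cells before immortalization against epicardial cells. Neither of those is among these libraries, which are of immortalized cells. Here the control libraries held 19.6 CPM of Wt1 and 14.4 CPM of Tcf21 on average. Both genes were thus detected, but these values cannot be set directly against that comparison. The epicardial genes Upk3b (log2 fold change 1.89), Tcf21 (1.49) and Wt1 (1.34) rose, as did Thy1 (0.54) and Eng (0.12), whereas Ly6a (-0.57) and Tbx18 (-0.33) fell. These marker changes went with the histone changes in the same libraries, and their part in them was not tested. The 11 markers of endothelial, blood and muscle cells together held 1.78 to 2.43 CPM in control against 2.71 to 2.88 CPM in induced libraries, with Ptprc, Tyrobp, Cd52 and Itgam at 0 in all 6, and their part in the histone results was not tested. Correlations of log counts were 0.992 to 0.994 within groups and 0.924 to 0.927 between them. Induced 2 differed most from its group, with a chi-square per degree of freedom of 8.04 and 8.91 against the other induced libraries, which differed from each other by 4.68. Without it 6 members were higher and 2, Hist1h1d and Hist1h3c, were lower.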

How the data were processed

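Gene counts and FPKM per library were used as deposited by the authors. The counts are raw whole numbers and the FPKM were divided by the authors by gene length and a depth of 0.980 to 1.03 of the library total. The submitters' processing notes name HISAT2 2.0.5, featureCounts 1.5.0-p3, DESeq2 1.16.1 and mm10. Strand and the treatment of multiply mapped reads are not given in the sources used here, nor which libraries had the oligo(dT) method that the study's methods name beside the NEBNext kit, and the labels and the methods name different sequencers. The authors' columns of fold changes, p-values and enriched terms were not used.

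Counts were fitted in R 4.3.3 with edgeR 4.0.16 (TMM, filterByExpr with a minimum count of 10, quasi-likelihood test, 14246 genes, adjusted over all of them). CPM are TMM-scaled, and SD is over 3 libraries. In simulated data of 14246 genes, of which 200 were changed by 1 on the log2 scale, 86.3% were recovered and 6.08% of calls were false. A share of changed genes as large as that called here was not tested, nor were genes of low counts alone. Alternatives were DESeq2 1.42.0, limma 3.58.1 on log2(FPKM + 1) and log2(FPKM + 0.1), median-ratio size factors, library totals, no and a stricter filter, an adjusted p of 0.01, a replicate block and leaving out each library. Libraries of a group differed beyond counting noise (chi-square per degree of freedom 2.56 to 8.91). Shared replicate numbers did not pair the libraries (correlations of deviations -0.00, -0.02 and 0.03).

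Members and lists were chosen with earlier results of these data known. The rule for named genes was every member past the filter, in each class the 3 with the highest FPKM and the called members with the largest rise and fall, all replacement histones and the 3 genes of each other list with the smallest p. Other genes named were chosen after their values were seen, as were the sums without Hist1h1c and Hist1h2bc, the limit on shared 75-base stretches, the split by AATAAA, the median over members that passed in both groups, the sums without Hist1h3c, the RNAs without a tail and the overlap partner. Intervals are at 95% and cover counting error only. Sequences are from GENCODE M21 transcripts and RefSeq promoters, matched by Entrez gene ID. Symbols Zcchc6 and Zcchc11 were not found in the table. Shared stretches were counted at 75 bases. Python 3.11.15, pandas 2.3.3, scipy 1.17.1 and matplotlib 3.10.9 were used.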

Additional observations from a re-analysis of the deposited data

How the results depend on the processing

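Of 9225 genes called in the whole table, 7783 to 9765 were called under the alternatives. The members called higher, 6, numbered 6 or 7 in every alternative fit and 5 among members with under 50% of shared stretches. The member called lower, 1, became 0 with DESeq2, the stricter filter, limma with either pseudocount and an adjusted p of 0.01, 2 without a filter, and 0 to 2 with a library left out. The replicate numbers did not pair the libraries; with the number as a block, 9063 genes were called, 6 members were higher and 1 was lower, and of 32 single genes followed the block removed only the call of H3f3a (adjusted p = 0.0586). In the processing list the 1 higher gene became 0 with DESeq2, library totals, no filter, limma and 0.01, and 0 to 1 with a library left out, and the 17 lower genes became 11 with DESeq2 and with 0.01.

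Medians over the tested members of a class depend on which members are tested. For H1 the median of 0.76 became -0.65 with no filter, 2.18 with the stricter filter and 0.22 with limma on log2(FPKM + 1), and 0.49 to 1.13 with a library left out. For H2A, 1.18 became -1.81 with no filter, 0.74 with that limma fit and 0.084 to 1.30 with a library left out. For H2B, 0.41 became 0.061, 1.25 and 0.23 in the order given for H1, and 0.24 to 0.58 with a library left out. For H3, 2.16 became -0.97 with no filter, 0.98 with limma and -0.67 to 2.51 with a library left out, the values below 0 being those in which Hist1h3c passed the filter. For H4, 1.74 became 0.13 with no filter, 1.18 with limma and 1.63 to 1.88 with a library left out. Of 476 values of 32 single genes, 457 kept call and direction, 14 lost the call, 5 gained it and none reversed. Scaling by library totals moved the median of all genes by -0.04. The low read numbers of the 55 untested members limit what can be said of each.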

Other observations

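Other genes inside the HIST1 interval (chr13:21715763-23934851) were read after the members had been seen. Among 148 of them, 47 protein coding, 6 passed the filter on low counts. Hfe, the hemochromatosis gene that lies among the histone genes, was higher in induced cells, with 17.6 ± 0.914 and 24.1 ± 0.297 CPM (SD, n = 3 each; log2 fold change 0.45, edgeR adjusted p = 5.26e-05). The zinc finger gene Zfp184 was lower (-0.75; edgeR adjusted p = 0.00629). Zfp322a (0.00), Abt1 (-0.01), C230035I16Rik (-0.25) and Gm46404 (-0.28) were not called. Among these neighbours, none changed by as much as 1 on the log2 scale.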
